A study of Homo sapiens with 6 samples.

Results

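The transcripts of 10 mitochondrial chaperones and quality-control proteases were followed in MiaPaCa-2, an established human pancreatic ductal adenocarcinoma cell line, under glucose limitation. The members are HSPD1, HSPE1, HSPA9, DNAJA3, GRPEL1, TRAP1, LONP1, CLPP, CLPX and YME1L1. They were chosen by symbol for their known function, with no measured value in the rule but with earlier results of these data known. They make up 10 of the 60668 genes in the deposited table. All 10 passed the filter on low values (a mean of at least 1), as 21101 genes did. Parental cells were kept for 48 h in 2.5 mM glucose (low glucose, 3 libraries) or in 25 mM glucose (control, 3 libraries). No other treatment and no edited gene is named for either group. The paper lists plasmocin, given against mycoplasma, in its standard 25 mM medium but not in its low-glucose medium. Whether the control cells had it here is not stated. Both groups come from the same cell line, so they describe 1 tumour background. The labels' treatment field gives the low-glucose condition for all 6 samples, whereas the titles and the sample characteristics separate the groups, and these were followed here.

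Most mitochondrial proteins are made in the cytosol and threaded unfolded through the outer and inner membranes. In the matrix, the HSP70 machine pulls them in and passes them on, the HSP60 chamber with its HSP10 lid encloses them while they fold, and an HSP90 relative binds later clients. Proteases built around ATP-driven rings unfold and cut proteins that fail to fold or assemble. When this system is overloaded, cells can raise nuclear genes for its chaperones and proteases, a programme known as the mitochondrial unfolded protein response. Tumour cells often carry high levels of these proteins.

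Stretches of DNA upstream of 5 members are shown because the members share, or differ in, short motifs near their starts. RefSeq promoter windows (GRCh38.p14, 250 bases before each annotated start) were at hand for 7 of the 10 members, in 9 windows. GRPEL1, CLPP and YME1L1 were not matched. Capitals mark matches, on either strand, to a minimal heat shock element (GAANNTTC or TTCNNGAA), an E-box (CACGTG) or a core of the NRF1 site (GCGCANGC). Matches to a heat shock element can overlap each other, and so can those to the NRF1 core.
HSPD1, chr2:197500061-197500090, minus strand: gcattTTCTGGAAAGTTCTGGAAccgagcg
HSPE1, chr2:197500334-197500363, plus strand: GCCTGCGCgctgggtgattttttCACGTGt
HSPA9, chr5:138575403-138575432, minus strand: cgcccctcacccCACGTGgttggaggtttc
LONP1, chr19:5720341-5720370, minus strand: ctcacagccttcCACGTGaccggaaaaggc
LONP1, chr19:5720178-5720207, minus strand: cgcgccgggcgtCACGTGcgtttcgcggcg
CLPX, chr15:65185409-65185438, minus strand: cctaggGCGCAGGCgcGCGCAAGCtccccg

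HSPD1 and HSPE1 lie head to head. The HSPE1 start is 539 bases from the HSPD1 start that follows the heat shock element, and 105 bases from a second annotated HSPD1 start. The HSPD1 stretch holds 3 overlapping heat shock matches, 245, 240 and 235 bases before the start. HSPD1 was the only 1 of the 7 members with this motif in a window. The stretch is also upstream of the HSPE1 start, but outside the HSPE1 window (chr2:197500129-197500378). Whether HSPE1 counts thus depends on the length of the window and on the start used. The HSPE1 gene span given below begins at chr2:197500140, nearer to this stretch than the start used here, chr2:197500379. The motif occurred in 11.6% of all 35116 windows of this length. The E-box was found in windows of 4 members and in 6.34% of all windows, and the NRF1 core in windows of 5 members and in 10.4% of all windows. The E-box and the NRF1 core of HSPE1 are the same bases as those of the second HSPD1 window, read from the other strand, so both genes are counted for 1 site. The composite of ATF4 and C/EBP factors (TGATGNAA) was in no member's window and in 3.14% of all windows. None of the 4 motifs was in the TRAP1 window. A match describes letters only.

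The 6 libraries held 9741183 to 13733477 reads on genes, and single members held 379 to 18533 reads per library. The deposited values are gene counts divided by 1 size factor per library, and are called normalised read counts below. Library values are given in the order of depth, which was 9741183, 10126218 and 10190154 reads for control and 10595408, 10841656 and 13733477 reads for low glucose. Only the second and the first of these low-glucose libraries are tied to a replicate in the labels (1 and 2), and the remaining columns were grouped by their consecutive names. Control libraries differed from each other by 4.63 to 18.9 chi-square units per gene and low-glucose libraries by 1.90 to 2.89, so no library was a copy of another. KRT8, KRT18 and VIM were abundant and CDKN2A and CDKN2B, which this line has lost, had no read. The leukocyte marker PTPRC had none either. The endothelial marker PECAM1 and the fibroblast marker COL1A1 had 0 to 3 and 3 to 14 reads. Reads of the mitochondrial genome made up 2.47 to 3.82% of control and 4.65 to 5.12% of low-glucose libraries, and their part in the results below was not tested.

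In low glucose 4 members were lower than in control: the chaperonin HSPD1, the exchange factor GRPEL1, the HSP90 relative TRAP1 and the unfoldase CLPX. Their means fell by 21.5% (TRAP1), decreased by 22.3% (HSPD1), decreased by 25.5% (CLPX) and decreased by 27.3% (GRPEL1), and all low-glucose libraries lay below all control libraries in each. No member rose. HSPE1, HSPA9, DNAJA3, LONP1, CLPP and YME1L1 did not pass the threshold (limma on log2(value + 1), two-sided, adjusted over all genes tested, 0.05). The 4 of 10 stand beside 30.9% of all tested genes that passed in either direction, 16.2% that passed as lower and 43.9% whose conditions did not overlap. All 10 members have a mean of at least 500, and the class of 4663 genes at that level was chosen after the values were seen. In that class the conditions did not overlap for 3164 genes, a larger share than the members' 4 of 10. There, 42.1% passed as lower and 56.3% in either direction. The members' share of lower genes was therefore near that of other abundant genes. Their median log2 fold change was -0.11, beside 0.05 for all tested genes and -0.17 for the abundant ones. Because each library pools many cells, fewer cells with a transcript and less of it per cell cannot be told apart. Each value is also relative to the rest of its library, so a change of total RNA per cell cannot be seen.

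**Figure D1:**
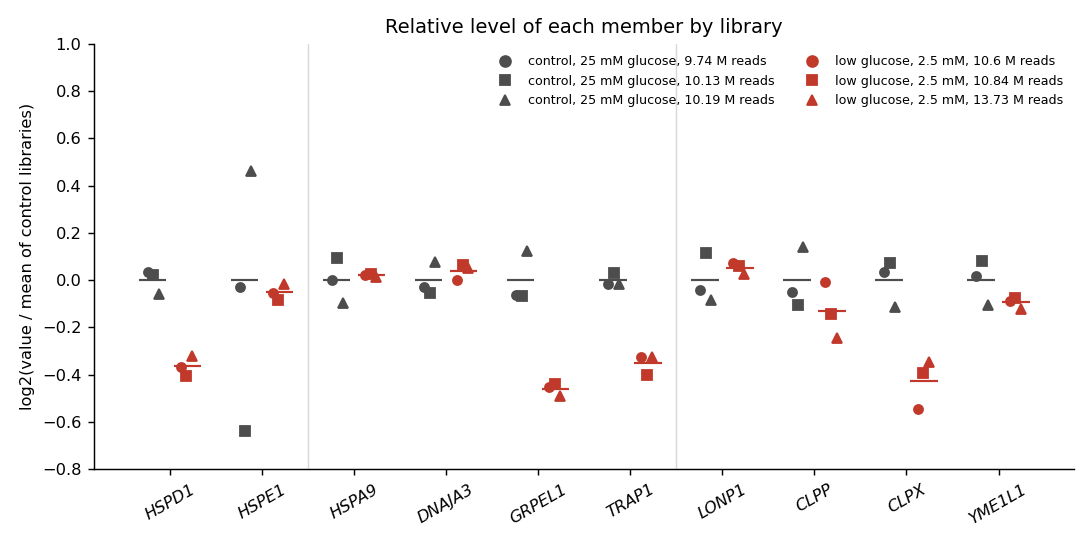
Log2 ratio of each member's normalised read count to the mean of the 3 control libraries (vertical axis), by library, with control and low glucose in different colours and symbols for the libraries. In HSPD1, GRPEL1, TRAP1 and CLPX the low-glucose points lie below all control points, and the control points of HSPE1 spread from -0.57 to 0.53.

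HSPD1 encodes HSP60, the barrel in which matrix proteins fold (ENSG00000144381.17, chr2:197486584-197516737, minus strand, hg38). Its normalised read counts were 17239, 17068 and 16146 in control and 13021, 12709 and 13480 in low glucose. The conditions were far apart for the spread within each, with means of 16818 ± 588 and 13070 ± 388 (SD, n = 3). The log2 fold change was -0.36 (SE 0.0804, 95% interval -0.535 to -0.192, limma adjusted p = 0.0032). The call held under all 17 alternatives, with log2 fold changes from -0.44 to -0.28. The 18 HSPD1 pseudogenes of the table held 20 to 32 reads per library in sum, against at least 13181 on HSPD1 itself.

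HSPE1, whose product HSP10 closes the HSP60 barrel, varied too much among control libraries for a fall like that of HSPD1 to be seen (ENSG00000115541.11, chr2:197500140-197503449, plus strand). Its control libraries held 645, 422 and 907 and its low-glucose libraries 634, 620 and 651. The low-glucose values lie within the control range, and the control SD was 243 on a mean of 658 against 15.2 on a mean of 635. The log2 fold change was 0.02 (SE 0.186, 95% interval -0.38 to 0.414, limma adjusted p = 0.959), an interval that includes the HSPD1 value of -0.36. Control libraries decide the value. Without the library of 10126218 reads it was -0.27 (limma adjusted p = 0.0314), and without the library of 10190154 reads it was 0.28 (limma adjusted p = 0.0958). The ratio of HSPD1 to HSPE1 counts was 26.7, 40.4 and 17.8 in control and 20.5, 20.5 and 20.7 in low glucose. The log2 ratio differed by -0.38 (SE 0.341, exact permutation p = 0.4, two-sided), and by -0.0848 without the control library of 10126218 reads or -0.68 without that of 10190154. No change of the pair's balance was detectable, and an exact permutation test of 3 libraries against 3 cannot go below p = 0.1. HSPE1 also shares 135 exon bases with HSPD1 on the opposite strand. HSPD1 held 13181 to 17791 reads per library and HSPE1 379 to 859. The strand setting of the counting is not known, so reads in the shared bases may be counted for the wrong gene.

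HSPE1 has the shortest canonical transcript of the members, 557 bases, and the others span 2223 to 4695. Among 264 genes with transcripts under 800 bases, the median log2 deviation from the control mean was 0.03, -0.32 and 0.29 in the control libraries, in the same order as 0.04, -0.57 and 0.53 for HSPE1, which deviated further. The part of transcript length in the spread of HSPE1 was not tested. In low glucose it was 0.14, 0.14 and 0.06. For 5276 genes of 3000 bases and over, the medians were -0.003, 0.09 and -0.08 in control and -0.13, -0.13 and -0.11 in low glucose. Short transcripts were thus low in the control library of 10126218 reads, where long ones were high. After a trend with length was removed from each library, a step chosen after the data were seen, HSPE1 was at -0.13 (limma adjusted p = 0.522). The falls of HSPD1, GRPEL1, TRAP1 and CLPX were past the threshold after this step too, and no other member passed.

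**Figure D2:**
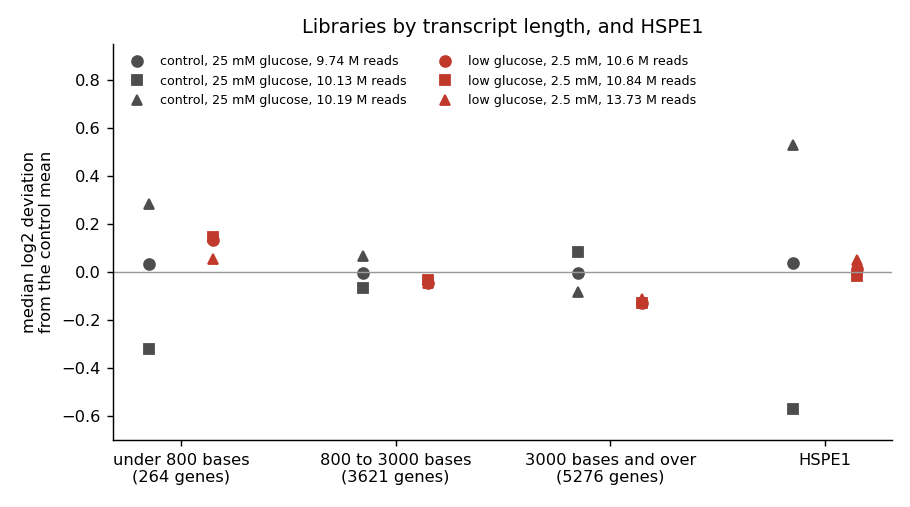
Median log2 deviation from the control mean (vertical axis) in each library for genes with a mean of at least 100, grouped by the length of the canonical transcript, beside HSPE1. The control libraries fan out for transcripts under 800 bases, from -0.32 to 0.29, and HSPE1 shows the same order from -0.57 to 0.53.

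HSPA9 encodes mortalin, the HSP70 of the matrix (ENSG00000113013.15, chr5:138553756-138575675, minus strand). It held 13905, 14835 and 12992 in control and 14133, 14167 and 14043 in low glucose. The low-glucose libraries lie within the control range. The log2 fold change was 0.02 (SE 0.0825, 95% interval -0.154 to 0.2, limma adjusted p = 0.864).

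DNAJA3, the J protein that delivers clients to HSPA9 and starts its ATP cycle, also did not pass the threshold (ENSG00000103423.14, chr16:4425805-4456775, plus strand). Control libraries held 1043, 1024 and 1122 and low-glucose libraries 1064, 1110 and 1102, with overlap. Its log2 fold change was 0.04 (SE 0.076, 95% interval -0.123 to 0.202, limma adjusted p = 0.738).

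GRPEL1 encodes the factor that frees ADP from HSPA9 so that the cycle can start again (ENSG00000109519.13, chr4:7058671-7068085, minus strand). It held 948, 945 and 1078 in control and 723, 731 and 705 in low glucose. The groups are separated by more than either spreads, at 991 ± 76.0 and 720 ± 13.1 (SD, n = 3). The log2 fold change was -0.46 (SE 0.0819, 95% interval -0.633 to -0.282, limma adjusted p = 0.000681), the lowest value among the members in this fit. GRPEL2, its paralog and no member, was at 542 in control and 667 in low glucose, a log2 fold change of 0.30 (SE 0.091, limma adjusted p = 0.0211). That rise passed the threshold under 12 of 17 alternatives, with an adjusted p of at most 0.113.

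TRAP1, the HSP90 of the mitochondrion, held 3481, 3593 and 3473 in control and 2807, 2661 and 2807 in low glucose (ENSG00000126602.11, chr16:3651639-3717553, minus strand). Its control libraries had the smallest relative spread of the members, with a coefficient of variation of 1.92%. The means were 3516 ± 67.4 in control and 2758 ± 84.7 in low glucose (SD, n = 3), with no overlap. The log2 fold change was -0.35 (SE 0.0706, 95% interval -0.501 to -0.199, limma adjusted p = 0.00169). Under quantile normalization it was -0.18 (limma adjusted p = 0.0593). TRAP1 shares 1477 exon bases with DNASE1 on the opposite strand, which held 1576 to 2137 reads and a log2 fold change of -0.29 (SE 0.0708, limma adjusted p = 0.00604). The strand setting of the counting is not given in the sources used here, so reads in the shared bases cannot be assigned to either gene with certainty.

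LONP1 is the soluble matrix protease that removes oxidised and misfolded proteins and helps to maintain mitochondrial DNA (ENSG00000196365.12, chr19:5691834-5720572, minus strand). Control libraries held 3655, 4070 and 3549 and low-glucose libraries 3952, 3912 and 3832. The low-glucose libraries lie within the control range, with a log2 fold change of 0.06 (SE 0.0764, 95% interval -0.108 to 0.219, limma adjusted p = 0.629). Under quantile normalization it was 0.26 (limma adjusted p = 0.0121), the only alternative that called it. LONP1 shares 42 exon bases with RPL36 on the opposite strand, which held 2500 to 5591 reads.

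CLPX and CLPP form the second matrix protease, ClpXP, in which the CLPX ring unfolds substrates and feeds them to the CLPP peptidase chamber. CLPX held 784, 804 and 706 in control and 525, 582 and 602 in low glucose (ENSG00000166855.9, chr15:65148219-65185342, minus strand). The groups did not overlap, at 764 ± 51.5 and 569 ± 40.1 (SD, n = 3). The log2 fold change was -0.42 (SE 0.0888, 95% interval -0.615 to -0.235, limma adjusted p = 0.00216). CLPP held 771, 743 and 882 in control and 794, 722 and 674 in low glucose (ENSG00000125656.11, chr19:6361531-6370242, plus strand). Here the groups overlap, and the log2 fold change was -0.13 (SE 0.0926, 95% interval -0.327 to 0.0693, limma adjusted p = 0.322). A difference between the subunits was not detectable. The log2 ratio of CLPX to CLPP changed by -0.30 (SE 0.183, exact permutation p = 0.3, two-sided), with overlapping libraries, and by -0.18 without the low-glucose library of 10595408 reads.

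YME1L1, the protease of the inner membrane that faces the intermembrane space and processes OPA1, did not pass the threshold (ENSG00000136758.18, chr10:27110111-27155266, minus strand). It held 2666, 2789 and 2448 in control and 2476, 2503 and 2424 in low glucose. The ranges overlap at the lowest control library, and the log2 fold change was -0.09 (SE 0.075, 95% interval -0.253 to 0.0682, limma adjusted p = 0.387). It shares 443 exon bases with MASTL on the opposite strand, which held 309 to 440 reads and fell by 0.39 on the log2 scale (limma adjusted p = 0.00554). The log2 ratio of LONP1 to YME1L1 was higher in low glucose by 0.15 (SE 0.03) with no overlap, at the smallest exact permutation p that the design allows, 0.1 (0.15 adjusted over 12 pairs).

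Levels between members were compared only per length, as TPM. In control, HSPD1 was highest at 1360 ± 85.3 TPM, followed by HSPA9 at 575 ± 53.9, TRAP1 at 287 ± 12.9, LONP1 at 221 ± 21.7 and HSPE1 at 213 ± 72.6 (SD, n = 3). YME1L1 at 114 ± 10.7, DNAJA3 at 71.5 ± 1.37, GRPEL1 at 67.7 ± 3.19, CLPP at 60.1 ± 3.67 and CLPX at 29.6 ± 2.83 were lower. The libraries of HSPE1 (141 to 286 TPM) overlapped those of both TRAP1 (274 to 300) and LONP1 (202 to 244), and those of DNAJA3 and GRPEL1 overlapped too. The other neighbours in this order did not overlap. In low glucose HSPD1 was at 1030 ± 39.9 TPM and HSPA9 at 568 ± 4.33. TRAP1 at 220 ± 7.61 and LONP1 at 224 ± 1.06 then overlapped. GRPEL1 at 48.1 ± 0.553 lay below CLPP at 53.7 ± 3.9, and CLPX remained lowest at 21.5 ± 1.72. In low glucose HSPE1 was at 202 ± 6.63 TPM, and its libraries (197 to 210) lay below those of TRAP1 (212 to 227) and LONP1 (222 to 224). By this measure HSPE1 thus overlapped TRAP1 and LONP1 only in control, while its HSP60 partner is at the top of the order. The measure divides by the full canonical length, which is only 557 bases for HSPE1. The 26 HSPE1 pseudogenes of the table held 0 to 6 reads per library in sum. Whether HSPE1 lost reads to such copies or through its short length was not tested. The 10 members took 0.397 to 0.413% of the reads of control libraries and 0.381 to 0.387% of those of low-glucose libraries.

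**Figure D3:**
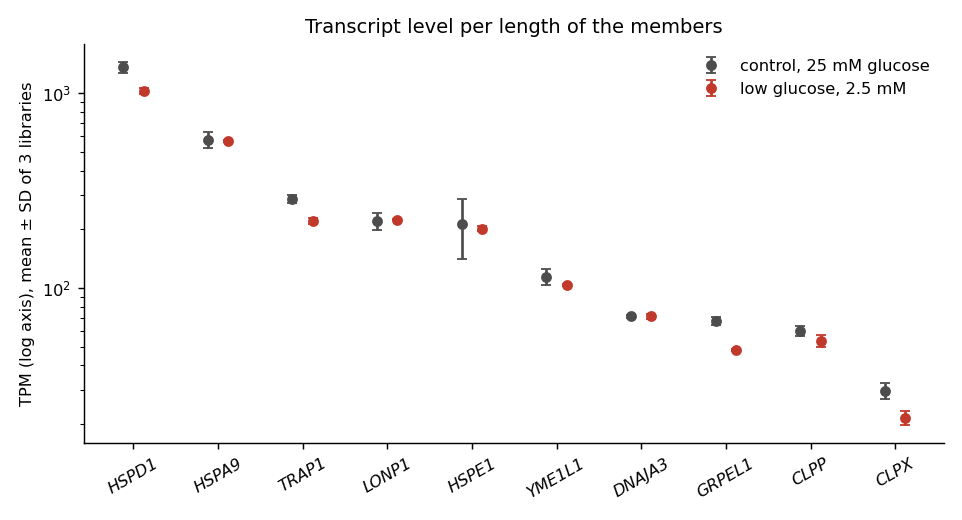
Transcript level of each member in TPM (log axis) as mean ± SD of 3 libraries per condition, in the order of the control mean. HSPD1 leads at 1360 TPM in control and 1030 in low glucose, and CLPX is lowest at 29.6 and 21.5.

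To place members beside proteins that work elsewhere, some were compared within each library with a counterpart in the endoplasmic reticulum (ER) or the cytosol. Counterparts were of the same family or, for GRPEL1, of the same function. The HSP70 of the ER, HSPA5 (BiP), rose with a log2 fold change of 1.66 (SE 0.0863, limma adjusted p = 1.45e-08), from 8876 to 28153 normalised read counts. The cytosolic HSPA8 fell with -0.61 (SE 0.0897, limma adjusted p = 0.000149). HSPA9, with 0.02, lay between them. The log2 ratio of HSPA9 to HSPA5 changed by -1.64 (SE 0.0799), and that of HSPA9 to HSPA8 by 0.63 (SE 0.0755).

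Among J proteins, DNAJB11 of the ER rose (log2 fold change 1.22) and DNAJA1 of the cytosol fell (-0.99), and the log2 ratio of DNAJA3 to each changed by -1.18 (SE 0.0939) and 1.03 (SE 0.052). Among HSP90 proteins, HSP90B1 of the ER rose (1.13) and HSP90AB1 of the cytosol fell (-0.67). The log2 ratio of TRAP1 to HSP90B1 changed by -1.48 (SE 0.106) and that to HSP90AB1 by 0.32 (SE 0.0304). GRPEL1 was compared with HYOU1, an exchange factor for BiP that rose by 1.71, and their log2 ratio changed by -2.16 (SE 0.152). The other exchange factor for BiP in the ER list, SIL1, was not paired and did not pass (0.19, limma adjusted p = 0.111). None of these 7 log2 ratios overlapped between conditions, and each had an exact permutation p of 0.1, the smallest possible (0.15 adjusted over 12 pairs).

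With the remaining counterparts the libraries overlapped. HSPD1 and TCP1, a subunit of the cytosolic chaperonin, both fell, and their log2 ratio differed by 0.03 (SE 0.0426, exact permutation p = 0.6). GRPEL1 and HSPH1, an exchange factor of cytosolic HSP70, differed by -0.18 (SE 0.146, exact permutation p = 0.3). Without the control library of 10190154 reads this was -0.0557, and without that of 10126218 reads -0.30. A p of this size does not show that the pairs moved alike.

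**Figure D4:**
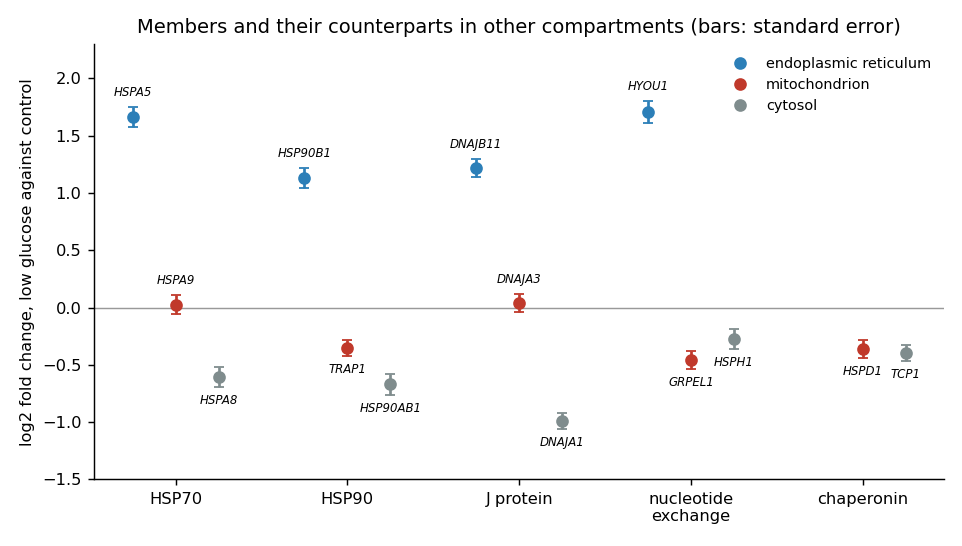
Log2 fold change, low glucose against control (vertical axis, bars are the limma standard error), of 5 members and their counterparts by family or function, coloured by compartment. The 4 ER proteins lie at 1.13 to 1.71, the mitochondrial members at -0.46 to 0.04 and the cytosolic proteins at -0.99 to -0.27.

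The lists of these compartments were counted next, each chosen by function with earlier results of these data known. Of 11 ER chaperones and folding factors, 9 rose, none fell and 2 (SIL1, 0.19, and CANX, 0.19) did not pass, with a median log2 fold change of 1.22. Of all tested genes 14.7% rose, and of those with a mean of at least 500, which 10 of the 11 reach, 14.3%. The J protein DNAJB9 (2.76) and SDF2L1, a partner of DNAJB11 (2.52), rose most, and HSP90B1 (1.13) and the lectin chaperone CALR (0.95) least among those that passed. All 18 cytosolic chaperones fell, with a median of -0.60. Of these, 17 reach a mean of 500, a level at which 42.1% of genes fell and the median was -0.17, beside 16.2% of all tested genes that fell. The stress-inducible HSPA1A (-1.45) and HSPA1B (-1.22), near-identical copies that the counting may split, fell most, and CCT8 (-0.30) and HSPH1 (-0.27) least. The fall of HSPH1 passed under 9 of 17 alternatives and that of CCT8 under 15. The median of the 10 mitochondrial members, -0.11, lay between the medians of both lists, and 0.05 is the median of all tested genes.

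**Figure D5:**
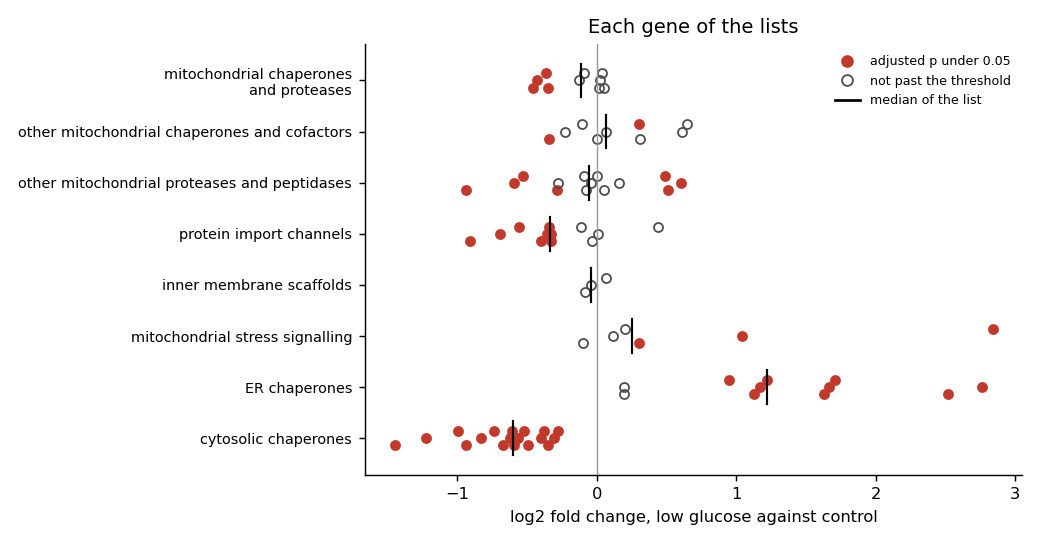
Log2 fold change, low glucose against control (horizontal axis), of each tested gene in 8 lists, with filled points for genes past the threshold and a line at each list's median. The medians run from -0.60 for cytosolic chaperones to 1.22 for ER chaperones, with the mitochondrial members at -0.11.

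Of 9 other mitochondrial chaperones and cofactors, only GRPEL2 rose and only CLPB, a disaggregase of the intermembrane space, fell (log2 fold change -0.34, limma adjusted p = 0.019, past the threshold under 11 of 17 alternatives), with a list median of 0.07. These 2 of 9 stand beside 30.9% of all tested genes. TIMM44, which docks HSPA9 at the inner-membrane channel, was at 0.01 (limma adjusted p = 0.971).

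Of 14 other mitochondrial proteases and peptidases, 3 rose, 4 fell and 7 did not pass, with a median of -0.06. The 7 that passed stand beside 30.9% of all tested genes and 56.3% of those with a mean of at least 500, a level that 6 of the 14 reach, so their share lies between these backgrounds. IMMP2L, a subunit of the inner membrane peptidase, rose by 0.61 and OMA1, the stress-activated protease that cuts OPA1 and DELE1, by 0.51. The metalloprotease ATP23 fell by 0.94 and PMPCA, a subunit of the peptidase that removes import signals, by 0.59 on the log2 scale. AFG3L2, the matrix-facing relative of YME1L1 (-0.53), PITRM1, which degrades the cut import signals (-0.28), and LACTB (0.49) complete the counts and were chosen after their values were seen. LACTB passed under 6 and PITRM1 under 9 of 17 alternatives, and OMA1 and IMMP2L under 15 and 16.

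Of 13 genes of the protein import channels, 12 were tested (TOMM6 had no read), 8 fell, none rose and 4 did not pass, with a median of -0.33. Of all tested genes 16.2% fell, with a median of 0.05, and of those with a mean of at least 500, which 9 of the 12 reach, 42.1% fell, with a median of -0.17. TOMM40, the pore of the outer membrane, went from 4365 to 2704 normalised read counts (log2 fold change -0.69, limma adjusted p = 8.99e-06). The small subunit TOMM5 fell by 0.91, at 31.2 and 16.0 normalised read counts, while the receptor TOMM22 (-0.33) and the carrier channel TIMM22 (-0.32) fell least among those that passed. TOMM5, TOMM22 and TIMM22 passed under 12, 12 and 13 of 17 alternatives. The prohibitins PHB1 (-0.09) and PHB2 (-0.04) and STOML2 (0.07), which organise the inner membrane around such proteases, did not pass.

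Of 6 genes of mitochondrial stress signalling, 3 rose and none fell, with a median of 0.25. All 6 reach a mean of 500, a level at which 14.3% of genes rose, as did 14.7% of all tested genes. ATF4, the transcription factor of the integrated stress response, held 2624, 1932 and 2743 in control and 5002, 5051 and 4784 in low glucose. All low-glucose libraries lay above all control libraries (log2 fold change 1.04, SE 0.109, limma adjusted p = 7.66e-06). DDIT3 (CHOP), its partner and target, rose from 174 ± 57.7 to 1198 ± 116 (SD, n = 3), a log2 fold change of 2.84 (SE 0.189, limma adjusted p = 1.45e-07). DELE1, which carries a mitochondrial stress signal to the cytosol, rose by 0.30 (SE 0.0825, limma adjusted p = 0.0124, past the threshold under 14 of 17 alternatives). The kinase that DELE1 activates, EIF2AK1 (-0.09, limma adjusted p = 0.341), ATF5, a factor of the mitochondrial unfolded protein response (0.12, limma adjusted p = 0.244), and HSF1, which binds heat shock elements (0.20, limma adjusted p = 0.128), did not pass. ATF4 and DDIT3 also respond to stress of the ER, where the chaperones above rose, and the sources cannot be told apart here.

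The genes with the pattern most like HSPD1 over the 6 libraries, by Pearson's r of log2(value + 1) over the 10148 genes whose mean reached 100, were the translation initiation subunit EIF2S1 (0.9987), the replication factor WDHD1 (0.9986) and the spindle checkpoint kinase BUB1B (0.9984). This likeness is common, since 1309 genes were above 0.95, and the points share the contrast of the conditions. For LONP1 they were the glutamine transporter SLC1A5 (0.9972), the mitochondrially encoded ATP synthase subunit MT-ATP8 (0.9864) and the dynactin subunit DCTN4 (0.9838), and 44 genes were above 0.95. LONP1 did not pass the threshold, so its pattern holds much of the spread among control libraries (SD 276, against 61.0 in low glucose). Shared regulation was not tested.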

How the data were processed

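Strand-specific RNA-seq libraries of MiaPaCa-2 cells were analysed from 1 deposited table. Per the labels and the methods, the authors trimmed reads with Trim Galore, checked them with FastQC, mapped them to hg38 with STAR 2.7.0e and compared conditions with DESeq2. RSEM stands in the study's list of software, with no statement that it made this table. The strand setting and the annotation are not given in the sources used here. Each deposited value is a normalised signal: the authors' read count of a gene over the size factor of its library. Reads were recovered from the steps between values, 100% of which were whole reads within 0.01. No column was left out.

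The main test was limma 3.58.1 (R 4.3.3, lmFit, eBayes with trend) on log2(value + 1) for genes with a mean of at least 1, two-sided, with Benjamini-Hochberg adjustment over 21101 genes and a threshold of 0.05. It was tested on simulated data with the same spread in both groups and no trend with length, unlike these libraries. Log2 ratios of gene pairs were compared with exact permutation tests over libraries, and 3 libraries per condition limit their p to 0.1. Alternatives were quantile normalization, TMM factors, library size scaling, no filter, a mean of at least 10, a pseudocount of 0.1, no variance trend, DESeq2 1.42.0 and edgeR 4.0.16 on recovered reads, TPM over canonical transcripts of Gencode v44 (99.4% of identifiers matched), and each library left out in turn. Removal of a length trend (loess, span 0.3, mean of at least 10) and the class with a mean of at least 500 were chosen after seeing the data.

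The members and lists were chosen with earlier results of these data known. Named are all members, all genes of lists of up to 6, of longer lists the 2 highest and 2 lowest log2 fold changes among genes past the threshold, the genes of 12 pairs, and the 3 genes most like HSPD1 and LONP1. Genes on the opposite strand, TIMM44 and genes that complete small counts were added after their values were seen. Python 3.11.15 with scipy 1.17.1, matplotlib 3.10.9, pandas 2.3.3 and numpy 2.4.6 was used for the permutation tests, tables and figures.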

Additional observations from a re-analysis of the deposited data

How the results depend on the processing

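The falls of HSPD1, GRPEL1 and CLPX passed the threshold under all 17 alternatives, and that of TRAP1 under all but quantile normalization (-0.18, adjusted p = 0.0593), which also called LONP1 (0.26). The members called numbered 4 under every alternative but 1: without the control library of 10126218 reads, HSPE1 made 5. Signs changed only where no call was made, save in that fit. HSPE1 was at -0.0513 with DESeq2, -0.0301 with edgeR, -0.0175 as TPM and -0.13 with the length trend removed, and from -0.27 to 0.28 with a library left out. HSPA9 was at -0.0117 as TPM and from -0.0252 to 0.0705 with a library left out, DNAJA3 at -0.0174 with the length trend removed, and YME1L1 at 0.0938 under quantile normalization. The log2 ratio of HSPD1 to TCP1 changed by -0.00485 to 0.0598 with a library left out.

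Over all genes, 4090 passed without a variance trend, against 6528, and 4319 to 7251 with a library left out, fewest without low glucose replicate 1. The 3111 higher and 3417 lower genes became 3930 and 2645 when scaled by library size, where the median log2 fold change of genes with a mean of at least 20 moved from -0.024 to 0.056. No paired analysis was possible because the labels number only 2 of the columns, both of low glucose. With 3 libraries per condition, single members are resolved to about the widths of the 95% intervals given.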
